A study of Mus musculus with 30 samples.

Results

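The late course of mouse 3T3-L1 cultures kept with the herbicide quizalofop-p-ethyl (QpE) is described here, as the change in gene expression between 24 h and 12 days. It was read from 10 of the 30 RNA-seq libraries of the study: the 5 cultures labelled QpE at 12 days and the 5 labelled QpE at 24 h, chosen by treatment and time alone. The other 20 libraries are QpE cultures at 6 h and control cultures at 6 h, 24 h and 12 days, 5 in each group. QpE was given at 50 µM, which the labels write as 0.05 mM. 3T3-L1 is an established mouse fibroblast line that forms fat cells in culture, so the replicates are cultures of 1 line and not animals, and the p-values measure the spread between such cultures. QpE and control cultures alike were kept in a differentiation medium with fetal bovine serum, insulin and the phosphodiesterase inhibitor isobutylmethylxanthine, and QpE was added once the cells were already in that medium. The schedule of medium changes in the protocol is shorter than 12 days, and the label is kept here as it stands. The study asked whether QpE makes these cells form fat.

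Fat cell formation in this line runs in a known order. Hormone-treated cells first re-enter the cell cycle, then the nuclear receptor Pparg and its partner Cebpa take over, and genes for fat synthesis, storage and mitochondrial fuel use are switched on while the fibroblast matrix is turned down. QpE kills grasses by blocking the plastid acetyl-CoA carboxylase of the plant, the enzyme that makes malonyl-CoA for fatty acids. Mammals have a pair of such enzymes, encoded by Acaca and Acacb.

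The measured quantity was the FPKM of each gene (fragments per kilobase of transcript, scaled to the sequenced fragments of the library), which corrects for length, so levels can be compared between genes. Between libraries they depend on the scaling. Differences were tested on log2(FPKM + 1), so a value of 1 is a doubling for a well expressed gene and understates the change of a weakly expressed one. Depth was estimated at 10.6 to 13.8 M fragments per library. All adjusted p-values are from limma, two-sided, with Benjamini-Hochberg adjustment over 18035 rows, and 0.05 was the threshold. Of these rows, 12744 carried a gene name. The rest were assembled transcripts with no name, many of them in the locus of a named gene. For genes whose named share jumps between libraries, values are given with these transcripts added, and called whole-locus values.

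The 10 libraries separated by time on the first principal component, which held 35.2% of the variance. A second component, with 12.9%, set replicates 3 and 4 of QpE at 12 days (-56.0 and -60.2) apart from replicates 1, 2 and 5 (35.3, 38.4 and 18.8). Replicate 5 lay farthest out on the first component, at 89.8, where the other 12 day libraries were at 32.8 to 52.1. Values without these libraries are given beside the results they touch. The QpE cultures were more variable at 12 days than at 24 h, with median SDs over genes of 0.35 and 0.26 on the log2 scale.

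The labelled cell type was checked against marker genes. Of 11 white adipocyte markers, 10 could be tested and all 10 were higher at 12 days. Lep, the hormone leptin, stayed below the limit for testing, at 0 to 0.12 FPKM in these libraries. The summed level of the 11 markers was 3029 to 7262 FPKM at 12 days and 234 to 357 FPKM at 24 h. None of the 8 endothelial markers reached the limit for testing, with sums of 0.109 to 0.668 FPKM at 12 days and 0.0545 to 0.418 FPKM at 24 h. Of 11 macrophage markers, only Cd68, a lysosomal protein, and Cd14 were tested, Cd68 was higher by 1.57 at 12 days, and Adgre1 and Tyrobp were listed at 0 in all 5 libraries at 12 days. Des, the muscle filament desmin, was higher at 12 days, with 8.76 to 18.4 FPKM against 0.684 to 2.17 FPKM at 24 h, while Myod1 and Myog, which define muscle cells, were listed at 0 in all 10 libraries.

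Over the whole table, 2126 rows were higher at 12 days than at 24 h with QpE (11.8%) and 3158 were lower (17.5%), so 29.3% of rows were called by limma. Among named genes, 34.5% were called, with 1818 higher (14.3%) and 2584 lower (20.3%), and these shares are the background for the group counts below. With median-ratio scaling the split was 2662 higher and 2498 lower, and the share of higher calls was 51.6% in place of 40.2%. The median difference over all rows was -0.11 on the log2 scale, and -0.01 with median-ratio scaling, so differences of that size carry no direction. In 10.2% of rows every 12 day library was above every 24 h library, and in 14.7% every 12 day library was below.

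White adipocyte genes rose in the QpE course. The 15 largest rises among named genes, chosen by size and level, were Agpat2, Thrsp, Cfd, Phospho1, Gpd1, Itih4, Pnpla2, Agt, Ces1d, Fabp4, Slc2a4, Cidec, Scd1, Mrap and Adipoq, with differences between 3.76 and 5.91 on the log2 scale. This order rests on named transcripts. Over the whole locus the rise of Agpat2, first in that order, was 3.36, that of Agt was 2.47 and that of Scd1 was 4.85. The white adipocyte list had a median difference of 3.35, against -0.10 over all named genes tested. The same genes had a median of 3.27 in control cultures over the same span, with 8 higher. In bulk RNA, more fat cells and more RNA per fat cell cannot be told apart.

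Fabp4, the fatty acid carrier of fat cells, had 3087, 2883, 2106, 2278 and 3628 FPKM in replicates 1 to 5 with QpE at 12 days, against 144, 174, 151, 147 and 139 FPKM at 24 h. The lowest 12 day culture was far above the highest 24 h culture, and Fabp4 rose by 4.18 ± 0.16 (SE, n = 5 in each group; adjusted p = 1.78e-06 from limma). In control cultures Fabp4 had 2318, 1865, 539.6, 468 and 2645 FPKM at 12 days and 148, 176, 99.3, 52.2 and 167 FPKM at 24 h. Replicates 3 and 4 were low among the 12 day controls. The difference between the QpE and control courses of Fabp4 was not called (0.797 ± 0.61, adjusted p = 0.622).

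Cfd, the secreted protease adipsin, had 1867, 2144, 248, 179.8 and 1508 FPKM at 12 days and 23.3, 30.5, 20.01, 7.003 and 15.2 FPKM at 24 h with QpE. It rose by 5.39 ± 0.75 (adjusted p = 0.000646), but replicates 3 and 4 stayed far below the other 3 cultures. The same pair was low in controls, where Cfd had 907, 739.8, 79.1, 61.02 and 1119 FPKM at 12 days. Adipoq, the hormone adiponectin, had 1154, 1010.1, 390.04, 346 and 587 FPKM at 12 days against 56.1, 68.8, 39.4, 23.7 and 50.7 FPKM at 24 h with QpE, a rise of 3.76 ± 0.39 (adjusted p = 0.000144). Thrsp, a nuclear protein tied to fat synthesis, and Mrap, a partner of the corticotropin receptor, followed the same split: Thrsp had 254, 312, 12.8, 9.79 and 318 FPKM and Mrap 134, 140.5, 7.995, 9.22 and 141 FPKM at 12 days. Slc2a4, the insulin-responsive glucose transporter GLUT4, rose by 4.11 ± 0.51 to 44.5, 49.2, 11.3, 8.74 and 59.04 FPKM at 12 days, against 0.614, 0.54, 0.661, 0.323 and 0.978 FPKM at 24 h.

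**Figure D1:**
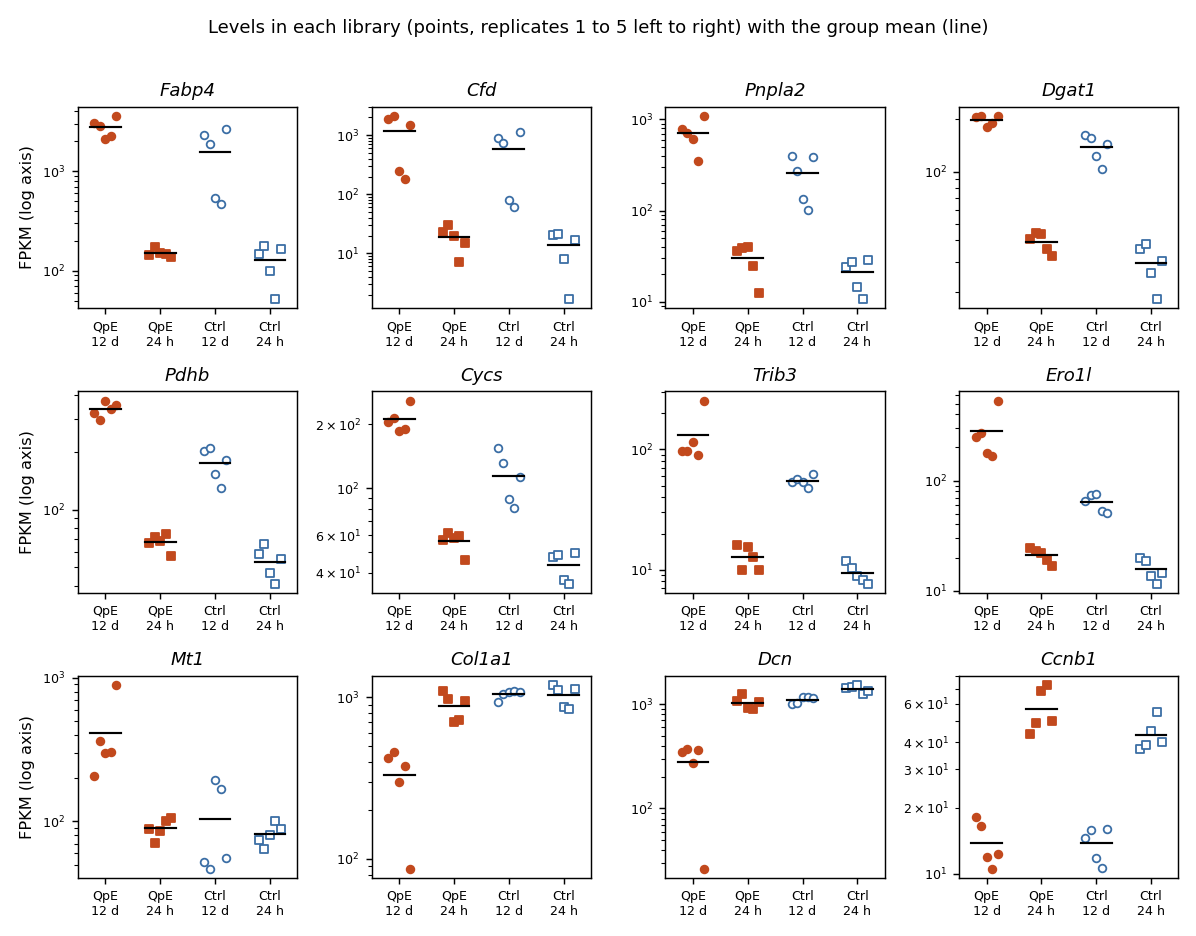
FPKM of 12 genes (log axes) in each library of QpE at 12 days, QpE at 24 h, control at 12 days and control at 24 h, with replicates 1 to 5 drawn left to right and the group mean as a line. Replicates 3 and 4 are low in Cfd at 12 days in both treatments (248 and 179.8 FPKM with QpE), and replicate 5 of QpE at 12 days is low in Dcn (26.4 FPKM) and Col1a1 (87.1 FPKM) and high in Mt1 (884 FPKM).

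The pro-adipogenic transcription factors moved in both directions. Of 19 tested, 6 were higher (Klf15, Nr1h3, Mlxipl, Cebpa, Pparg and Ppara), 2 were lower (Klf5 and Nr3c1), and the median difference was 0.15. Pparg had 162, 145, 169, 145 and 183 FPKM over its whole locus at 12 days, against 41.2, 42.5, 49.7, 46.2 and 28.1 FPKM at 24 h. No library overlapped, and the rise was 1.95 ± 0.15 (adjusted p = 1.35e-05). From its named transcripts alone the rise was 1.56 ± 0.37 (adjusted p = 0.0103), with replicate 2 at 37.6 FPKM by that measure. Cebpa had 314, 346, 129.7, 129 and 345 FPKM at 12 days and 93.9, 84.002, 77.4, 53.8 and 57.6 FPKM at 24 h, a rise of 1.66 ± 0.33 (adjusted p = 0.00458). Cebpb, an early factor of the same family, had 117, 189, 128, 112 and 242 FPKM at 12 days and 141, 106, 113, 90.5 and 149 FPKM at 24 h and was not called (adjusted p = 0.306, 95% interval -0.18 to 0.87). Klf15, a late factor, rose by 2.94 ± 0.71 (adjusted p = 0.0117), with 19.7, 19.8, 1.498, 1.505 and 26.6 FPKM at 12 days and no more than 0.392 FPKM at 24 h.

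Factors known to hold back fat cell formation were mostly lower. Of 18 tested, 11 were lower and 2 higher, with a median of -0.89. In controls 5 were lower and 1 higher, with a median of -0.25. Dlk1, the preadipocyte surface protein Pref-1, had 330.3, 440.1, 291, 267 and 127 FPKM over its whole locus at 12 days and 1040.2, 1009, 969.8, 946 and 1095 FPKM at 24 h with QpE, a fall of 1.899 ± 0.27 (adjusted p = 0.000388). Every 12 day culture was below every 24 h culture. In controls Dlk1 had 684, 757, 739, 854 and 919 FPKM at 12 days against 1211, 1044, 1104, 1329 and 1096 FPKM at 24 h. Sox9, a cartilage and progenitor factor, had 4.42, 4.14, 6.17, 6.47 and 4.08 FPKM at 12 days and 17.2, 14.5, 17.8, 16.4 and 17.3 FPKM at 24 h, and fell by 1.56 ± 0.14 (adjusted p = 7.34e-05). Zfp521, which opposes the early fat lineage factor Zfp423, fell by 1.799 ± 0.21 over its whole locus (adjusted p = 0.000106).

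The 2 members that went up were Ddit3 and Tead4. Ddit3, the stress factor CHOP, had 136, 137, 527, 371 and 303 FPKM at 12 days and 47.1, 42.9, 38.9, 27.6 and 31.4 FPKM at 24 h, a rise of 2.76 ± 0.37 (adjusted p = 0.00057). Tead4, a DNA-binding partner of YAP, had 4.53, 6.28, 7.79, 4.37 and 18.4 FPKM at 12 days and 1.85, 1.08, 1.399, 1.48 and 1.33 FPKM at 24 h, a rise of 1.76 ± 0.33 (adjusted p = 0.00291). Controls held Tead4 at 1.75, 0.866, 1.23, 1.14 and 1.55 FPKM at 12 days and 0.754, 0.539, 1.16, 1.29 and 1.01 FPKM at 24 h, and their difference was 0.25 ± 0.16 (adjusted p = 0.321). The difference between the courses was 1.52 ± 0.37, with an adjusted p of 0.0879. With only the most abundant transcript of each gene, Tead4 was not called in the QpE course.

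Enzymes of fatty acid synthesis were partly raised. Of 17 tested, 9 were higher, 1 was lower and the median was 0.99, against 5, 1 and 0.54 in controls. Scd1, the stearoyl-CoA desaturase, had 3603, 3741, 768, 584 and 3568 FPKM over its whole locus at 12 days and 58.9, 53.7, 82.7, 68.6 and 56.6 FPKM at 24 h, a rise of 4.85 ± 0.54 (adjusted p = 8.3e-05). Replicates 3 and 4 were again the low pair at 12 days. Fasn, the fatty acid synthase, had 481, 504, 66.03, 63.7 and 484 FPKM at 12 days and 56.7, 49.8, 57.9, 48.9 and 49.003 FPKM at 24 h. In replicates 3 and 4 it lay just above the 24 h level, and its call (rise 2.04 ± 0.64, adjusted p = 0.0358) was made in 11 of 21 alternative analyses. Without these cultures the fatty acid synthesis list had 13 members higher in place of 9. Slc25a1, the citrate carrier that feeds the pathway, rose in all 5 cultures, with 437, 419, 349, 252 and 521 FPKM at 12 days and 70.9, 71.1, 82.8, 75.1 and 64.5 FPKM at 24 h (rise 2.39 ± 0.18, adjusted p = 3.16e-05). Elovl6, an elongase, was the member that fell, by 1.16 ± 0.19.

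The acetyl-CoA carboxylase genes, the mammalian counterparts of the herbicide's plant target, were both higher over their whole loci. Acaca, the cytosolic enzyme, had 66.2, 57.8, 24.96, 22.1 and 44.95 FPKM at 12 days and 17.6, 10.4, 17.2, 15.3 and 13.2 FPKM at 24 h, a rise of 1.38 ± 0.30 (adjusted p = 0.00385). Acacb, the enzyme of the mitochondrial surface, had 18.5, 22.9, 9.58, 10.8 and 15.9 FPKM at 12 days and 7.12, 5.32, 6.22, 3.702 and 3.85 FPKM at 24 h, a rise of 1.37 ± 0.24 (adjusted p = 0.00127). No 12 day library overlapped a 24 h library in either gene. From named transcripts alone Acaca was not called (adjusted p = 0.209), where 70.4% of the FPKM of its locus were unnamed. Of 21 alternative analyses, Acaca was called in 1, the whole-locus sum, and Acacb in 21.

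Triglyceride assembly was raised along most of the pathway. Of 12 tested members, 10 were higher and none lower, with a median of 2.24. In controls 8 were higher, with a median of 1.83. Leaving out replicate 5 of QpE at 12 days left 6 higher. Agpat2, which adds the second fatty acid to the glycerol backbone, had 392, 492, 558, 439.6 and 606 FPKM over its whole locus at 12 days and 67.5, 57.2, 50.5, 34.9 and 33.1 FPKM at 24 h (rise 3.36 ± 0.21, adjusted p = 6.69e-06). Dgat1, which completes the triglyceride, had 208, 209, 181, 191 and 210.3 FPKM at 12 days and 40.98, 44.2, 43.2, 35.7 and 32.5 FPKM at 24 h, a rise of 2.32 ± 0.10 (adjusted p = 1.81e-06). Here replicates 3 and 4 were close to the others. Dgat2, the other enzyme of that step, did split: it had 591, 555, 185, 191 and 784 FPKM at 12 days against 66.5, 72.3, 60.5, 36.5 and 33.6 FPKM at 24 h, and rose by 2.901 ± 0.44 (adjusted p = 0.00107). Gpd1, which makes glycerol 3-phosphate, spanned 68.5 to 1032 FPKM among the 12 day cultures and 0.301 to 19.03 FPKM at 24 h. Phospho1, a phosphatase, rose in every culture to 80.9, 91.3, 148, 101 and 237 FPKM at 12 days, against 3.43, 2.42, 2.77, 1.57 and 3.71 FPKM at 24 h (rise 5.05 ± 0.29, adjusted p = 8.7e-06).

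Droplet proteins and lipases were raised together. Of 7 tested droplet coat genes 5 were higher, and of 9 tested lipolysis genes 6 were higher and 1 lower (Lipa, the lysosomal acid lipase). Cidec, which fuses droplets, had 635, 726, 77.4, 73.6 and 567 FPKM at 12 days and 17.5, 20.9, 17.7, 7.803 and 14.5 FPKM at 24 h (rise 4.099 ± 0.71, adjusted p = 0.002). Plin1, which coats the droplet, had 344, 235, 151, 159 and 222 FPKM over its whole locus at 12 days and 50.9, 50.1, 59.6, 36.9 and 38.6 FPKM at 24 h (rise 2.17 ± 0.23, adjusted p = 6.01e-05). Pnpla2, the lipase ATGL that starts triglyceride breakdown, had 784, 714, 603, 345 and 1099 FPKM at 12 days and 36.1, 39.1, 39.4, 24.5 and 12.3 FPKM at 24 h, a rise of 4.52 ± 0.37 (adjusted p = 5.39e-05). Controls reached 400.2, 271, 133, 102 and 382 FPKM at 12 days, a rise of 3.45 ± 0.43, and the difference between courses was not called (1.07 ± 0.60, adjusted p = 0.463). G0s2, the inhibitor of that lipase, rose by 2.62 ± 0.65 (adjusted p = 0.0132). Lipe, the hormone-sensitive lipase, rose by 2.43 ± 0.29 over its whole locus and Lpl, which frees fatty acids from lipoproteins, by 2.52 ± 0.23.

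Lpl also shows what the unnamed transcripts do to single values. Its named transcripts alone had 39.4, 1299, 1225, 43.8 and 84.2 FPKM at 12 days and 346, 13.5, 325, 268 and 285 FPKM at 24 h, with no call (adjusted p = 0.931). Its whole locus had 2305, 2175, 1225, 1939 and 2369.6 FPKM at 12 days and 346, 514, 329, 268 and 285 FPKM at 24 h, with an adjusted p of 3.22e-05. Genes that take up and bind fatty acids had 8 of 15 members higher and 1 lower. Fabp5 rose by 2.61 ± 0.18 and Acsl1, which activates fatty acids, by 2.79 ± 0.35. Cd36, the fatty acid receptor, rose by 2.72 ± 0.30 over its whole locus with QpE, to 343, 268, 145, 155 and 176 FPKM at 12 days. In control cultures it had 571, 599, 103, 66.5 and 517 FPKM, and the difference between courses was -0.32 ± 0.84 (adjusted p = 0.894).

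Nuclear genes of the mitochondrial respiratory chain rose, while the genes encoded in the mitochondrial genome passed the test in neither direction. Of 28 nuclear genes of oxidative phosphorylation, 27 were higher and none lower with QpE, with a median of 1.21. In controls 26 were higher, with a median of 0.71. Cycs, cytochrome c, had 206, 215, 185, 190.03 and 259 FPKM at 12 days and 56.8, 61.7, 58.1, 59.5 and 45.8 FPKM at 24 h, a rise of 1.88 ± 0.12 (adjusted p = 1.4e-05). Cyc1 and Uqcrfs1, both of respiratory complex III, rose by 1.82 ± 0.13 and 1.79 ± 0.11. The mean level of the list ran from 7.55 to 7.95 log2 units over the 12 day cultures with QpE and from 6.32 to 6.70 at 24 h, so that here replicates 3 and 4 did not stand apart. Of 13 genes encoded in the mitochondrial genome 12 could be tested, and limma called none in either course, with medians of -0.62 with QpE and 0.69 in controls and 5 of the 12 above 0 with QpE. At an unadjusted p under 0.05 there were 0 with QpE and 2 in controls. Their summed level was 925 to 7631 FPKM at 12 days and 2461 to 5547 FPKM at 24 h with QpE. Of the 13, 12 were listed at 0 in at least 1 of the 10 QpE libraries.

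The tricarboxylic acid cycle and the enzymes that feed it had 17 of 24 tested members higher and none lower, with a median of 1.40, against 18 and 1.05 in controls. With unnamed transcripts added, all 24 were higher. Pdhb, of the pyruvate dehydrogenase complex, had 321, 296, 373, 337 and 352 FPKM at 12 days and 66.9, 71.96, 68.2, 74.2 and 57.4 FPKM at 24 h (rise 2.29 ± 0.10, adjusted p = 1.78e-06). Idh3a, of isocitrate dehydrogenase, rose by 2.34 ± 0.12. In both of these every 12 day culture lay above every 24 h culture.

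Breakdown of branched-chain amino acids, a known fuel route of mature fat cells, had 16 of 19 members higher and 1 lower, with a median of 1.41, against 14, 1 and 0.92 in controls. Bcat2, the mitochondrial aminotransferase of the first step, had 277, 314, 89.1, 67.96 and 406 FPKM at 12 days and 21.5, 21.9, 20.7, 21.1 and 18.7 FPKM at 24 h, a rise of 3.09 ± 0.47 (adjusted p = 0.000984). Bcat1, the cytosolic form of the same enzyme, fell by 1.79 ± 0.41, so the pair moved in opposite directions. Aldh6a1, which acts late in valine breakdown, rose by 2.72 ± 0.17 (adjusted p = 1.51e-05).

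Fatty acid oxidation had the same pattern with 1 exception. Of 20 tested members 17 were higher and 1 lower, with a median of 1.07, against 15 higher and none lower in controls, with a median of 0.84. Decr1 and Hadhb, enzymes of the mitochondrial pathway, rose by 1.61 ± 0.13 and 1.58 ± 0.16. Cpt1a, the liver-type carnitine palmitoyltransferase that admits fatty acids to the mitochondrion, was lower instead. It had 15.4, 11.9, 14.5, 13.7 and 5.48 FPKM with QpE at 12 days, against 29.8, 29.4, 35.97, 38.2 and 40.1 FPKM at 24 h, and fell by 1.495 ± 0.24 (adjusted p = 0.00143). Controls had 25.9, 21.4, 26.5, 29.1 and 28.3 FPKM at 12 days and 27.5, 32.1, 35.8, 30.5 and 33.4 FPKM at 24 h, a difference of -0.27 ± 0.10 (adjusted p = 0.0752). Every QpE culture at 12 days was below every control culture of that age. The share of all rows with such a separation of the treatments was not counted, here or for the genes below. The test of the difference between courses gave -1.22 ± 0.27 with an adjusted p of 0.0639, and 0.0381 with unnamed transcripts added.

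**Figure D2:**
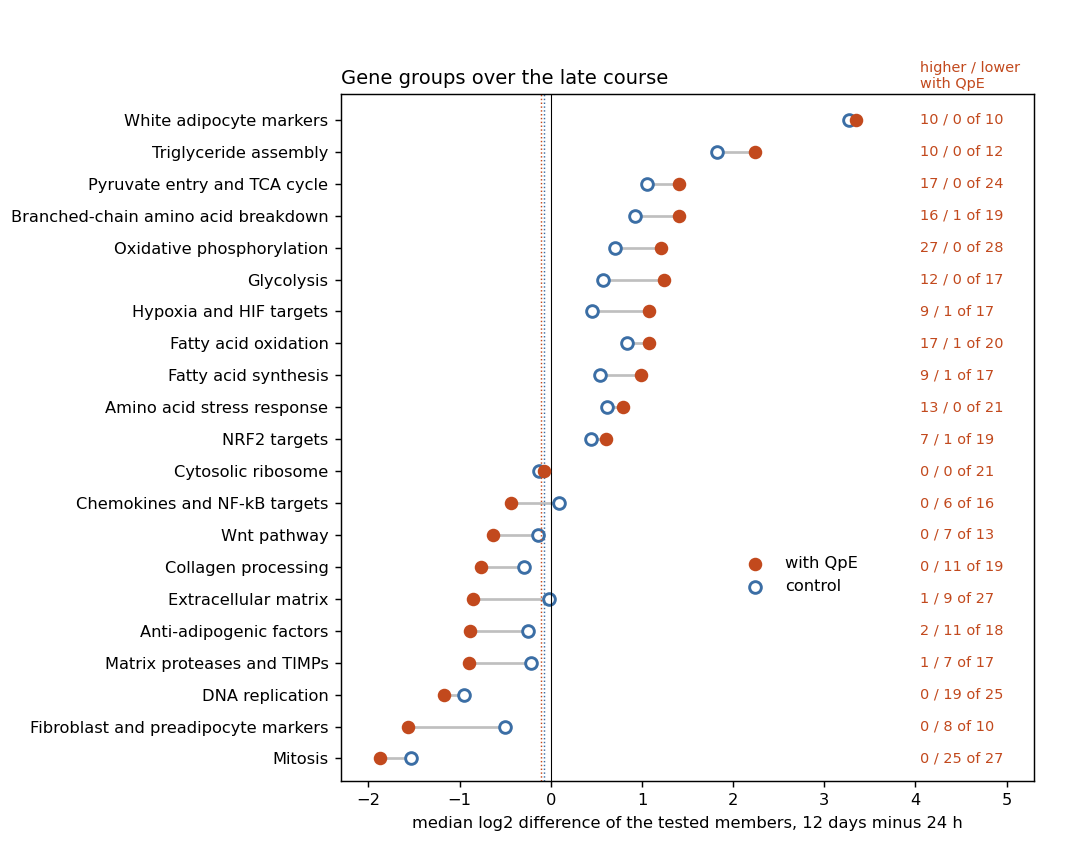
Median log2 difference (12 days minus 24 h) over the tested members of 21 gene groups, with QpE (filled) and in controls (open). Numbers at the right count members called higher and lower with QpE, and dotted lines mark the medians over all rows (-0.11 with QpE and -0.08 in controls). White adipocyte markers lie highest in both (3.35 and 3.27), and the extracellular matrix group is at -0.85 with QpE and -0.02 in controls.

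Glycolysis and oxygen-regulated genes were also higher. Of 17 glycolysis genes 12 were higher and none lower, with a median of 1.25, against 9 and 0.58 in controls. Aldoa, the aldolase, had 1442, 1968, 1426, 1036 and 2538 FPKM at 12 days and 305, 344, 415, 388 and 266 FPKM at 24 h (rise 2.24 ± 0.24, adjusted p = 0.000171). Of 17 targets of the hypoxia-inducible factor, 9 were higher and 1 lower with QpE, with a median of 1.08. In controls 9 were higher and 1 lower, at a median of 0.45. Bnip3, a mitochondrial protein of mitophagy, had 359.5, 379.8, 141, 137 and 490.3 FPKM at 12 days and 30.5, 30.5, 32.8, 36.4 and 30.2 FPKM at 24 h with QpE (rise 3.01 ± 0.35, adjusted p = 0.000255). It had 97.5, 78.5, 72.4, 67.3 and 89.5 FPKM in controls at 12 days. Egln3, a prolyl hydroxylase that senses oxygen, had 34.6, 40.8, 9.79, 10.1 and 53.8 FPKM at 12 days and 1.72, 1.88, 2.62, 2.42 and 1.92 FPKM at 24 h with QpE. Bnip3 and Egln3 were highest in replicates 1, 2 and 5, and Hif1a itself was not called.

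Cell cycle genes fell, as they did without QpE. Of 27 mitosis genes 25 were lower and none higher with QpE, at a median of -1.87, against 24 lower at a median of -1.53 in controls. With unnamed transcripts added all 27 were lower in both. Of 25 replication genes 19 were lower at a median of -1.17, against 20 at -0.95 in controls. Ccnb1, the mitotic cyclin B1, had 18.1, 16.5, 11.97, 10.6 and 12.2 FPKM at 12 days and 43.5, 49.03, 68.5, 72.8 and 49.7 FPKM at 24 h, a fall of 1.95 ± 0.19 (adjusted p = 9.63e-05). It had averaged 20.9 ± 3.41 FPKM (SD, n = 5) in QpE cultures at 6 h, so that 24 h was the peak of the 3 sampled times. Mki67, the proliferation marker Ki-67, had 7.804, 6.72, 3.93, 6.34 and 3.94 FPKM over its whole locus at 12 days and 22.6, 22.6, 37.5, 42.8 and 33.9 FPKM at 24 h (fall 2.28 ± 0.23, adjusted p = 5.02e-05). Mcm2, of the replicative helicase, had 20.4, 22.8, 23.3, 18.8 and 17.6 FPKM at 12 days and 32.3, 31.3, 35.5, 30.8 and 34.99 FPKM at 24 h, a smaller fall of 0.66 ± 0.10 (adjusted p = 0.000813). Ccnd1, the cyclin D1 of growth factor response, fell by 1.98 ± 0.16 (adjusted p = 5.27e-05). The cell cycle inhibitor Cdkn1c was at 0 to 0.187 FPKM in all 10 libraries and was not tested.

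Genes of mitosis share promoter elements that are known to switch them on in dividing cells: a CCAAT box and the cell cycle element TTTGAA. Both strands were searched in the 250 bases before the gene start in RefSeq (GRCm38.p6). CCAAT was found in 18 of 21 mitosis genes with a promoter in that table, against 41.4% of 8822 tested genes. TTTGAA was found in 8 of 21, against 12.4%, and both together in 8 of 21, against 4.82%. The CCAAT box was not limited to mitosis genes, since 14 of 20 DNA replication genes held it, and 2 of 20 held both elements. The windows of Ccnb2, a B-type cyclin, and Cdc20, which activates the anaphase ubiquitin ligase, are printed here. Both hold matches to both elements, shown in capitals. The TTTGAA match lies before all the CCAAT matches in Ccnb2 and between them in Cdc20. Bases past the annotated start were not searched. A match is a stretch of letters and no measured binding.
Ccnb2 (chr9:70421555-70421804, - strand): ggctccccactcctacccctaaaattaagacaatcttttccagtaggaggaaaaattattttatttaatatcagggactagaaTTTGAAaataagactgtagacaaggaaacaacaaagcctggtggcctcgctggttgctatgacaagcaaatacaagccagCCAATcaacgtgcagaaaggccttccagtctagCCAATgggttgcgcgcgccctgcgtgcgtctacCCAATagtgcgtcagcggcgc
Cdc20 (chr4:118437344-118437593, - strand): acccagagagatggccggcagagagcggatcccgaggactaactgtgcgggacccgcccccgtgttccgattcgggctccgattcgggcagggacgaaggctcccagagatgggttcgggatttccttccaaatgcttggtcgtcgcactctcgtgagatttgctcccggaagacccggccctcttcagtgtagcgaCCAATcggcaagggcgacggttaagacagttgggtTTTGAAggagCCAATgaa
Ccnb2 had 11.5, 10.2, 6.64, 6.07 and 6.69 FPKM over its whole locus at 12 days and 32.1, 38.01, 48.6, 50.5 and 33.6 FPKM at 24 h, a fall of 2.19 ± 0.19 (adjusted p = 2.7e-05). Cdc20 had 18.97, 21.03, 7.77, 8.24 and 11.9 FPKM at 12 days and 46.5, 50.9, 60.4, 62.2 and 56.1 FPKM at 24 h, a fall of 2.04 ± 0.26 (adjusted p = 0.000415). In both genes the highest culture at 12 days was below the lowest at 24 h.

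Fibroblast and matrix genes were lower at 12 days with QpE, and 1 library lay below the rest. Of 10 fibroblast and preadipocyte markers 8 were lower and none higher, with a median of -1.57, against 5 lower at -0.50 in controls. Of 27 extracellular matrix genes 9 were lower and 1 higher at a median of -0.85, against 5 lower and 4 higher at -0.02 in controls. Replicate 5 of QpE at 12 days had the lowest mean level of the matrix list, at 4.54 log2 units, where the other 12 day cultures were at 5.95 to 6.38 and the 24 h cultures at 6.33 to 7.06. Without replicate 5 the matrix list still had 9 lower and 1 higher, and the fibroblast markers 8 lower.

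Col1a1, of type I collagen, had 424, 462, 301, 378 and 87.1 FPKM with QpE at 12 days and 1089.98, 971, 706, 723 and 948 FPKM at 24 h, a fall of 1.605 ± 0.42 (adjusted p = 0.016). Control cultures held it at 936, 1053, 1087, 1099.9 and 1076 FPKM at 12 days and 1187, 1119.6, 869, 846 and 1135 FPKM at 24 h. Dcn, the collagen-binding proteoglycan decorin, had 349, 373, 275, 362 and 26.4 FPKM at 12 days and 1077, 1248, 925, 895 and 1045 FPKM at 24 h with QpE (fall 2.33 ± 0.66, adjusted p = 0.0236). It had 1016, 1029, 1172, 1167 and 1145 FPKM in controls at 12 days. For Col1a1 each of the 5 QpE cultures at 12 days was below each of the other 15 cultures named here. For Dcn each was below every QpE culture at 24 h and every control culture at 12 days. In both genes replicate 5 was below the rest. The tests of the difference between courses gave -1.64 ± 0.45 for Col1a1 and -1.99 ± 0.70 for Dcn, with adjusted p-values of 0.119 and 0.205. Without replicate 5 both passed that test. Dcn was not called in the QpE course when replicate 2 at 24 h was left out (adjusted p = 0.0523).

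Genes that process collagen had 11 of 19 members lower and none higher, with a median of -0.76, against 6 lower and 1 higher at -0.30 in controls. Lox, which crosslinks collagen and elastin, had 71.2, 70.97, 40.4, 55.3 and 20.7 FPKM at 12 days and 329, 185, 269.9, 247 and 309.6 FPKM at 24 h, a fall of 2.45 ± 0.32 (adjusted p = 0.000481). Pcolce, which speeds procollagen trimming, fell by 1.65 ± 0.35, and P4ha3, a prolyl hydroxylase of collagen, by 2.75 ± 0.29 over its whole locus. Of 17 matrix proteases and their inhibitors 7 were lower and 1 higher. Timp1, an inhibitor of these proteases, had 13.4, 15.6, 21.3, 25.97 and 2.902 FPKM at 12 days and 73.8, 86.2, 69.7, 69.7 and 79.04 FPKM at 24 h (fall 2.44 ± 0.44, adjusted p = 0.00268). Mmp11, stromelysin 3, was the one that rose, with 44.1, 39.2, 149, 89.98 and 42.2 FPKM at 12 days and 13.3, 9.25, 11.8, 8.16 and 11.9 FPKM at 24 h (rise 2.45 ± 0.35, adjusted p = 0.000809). Mmp3, stromelysin 1, had 62.95, 59.8, 76.2, 104 and 0.846 FPKM at 12 days and 229, 253, 109.5, 136 and 192 FPKM at 24 h. It was not called (adjusted p = 0.108), although the groups did not overlap, and without replicate 5 it was called lower.

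The 15 largest falls among named genes were Mki67, Lrrc17, Grem1, Saa3, Mgp, Olfml3, Cyp7b1, S100a4, Ptn, Stmn1, Col16a1, Vstm2a, Col23a1, Lox and Timp1, with differences between -3.46 and -2.44. This order too rests on named transcripts, and over the whole locus the difference was -2.28 for Mki67, first in that order, and -1.89 for Col16a1. Ptn, the growth factor pleiotrophin, was the most abundant of them, with 1796, 1909.9, 1364, 1876 and 169 FPKM at 12 days and 7103, 8105, 6185, 6241 and 7002 FPKM at 24 h. Its fall of 2.67 ± 0.63 (adjusted p = 0.00984) was present in all 5 cultures and deepest in replicate 5. S100a4, a calcium-binding fibroblast marker, had 314, 398, 327, 375 and 87.2 FPKM at 12 days and 1674, 1926, 1909, 1790.1 and 1677 FPKM at 24 h (fall 2.75 ± 0.38, adjusted p = 0.000587). Mgp, an inhibitor of calcification, fell by 2.84 ± 0.47. Grem1, which binds bone morphogenetic proteins, had 13.1, 12.9, 89.5, 113 and 3.13 FPKM at 12 days and 159, 163, 314, 352 and 243 FPKM at 24 h. Here replicates 3 and 4 were the highest, the reverse of the fat cell genes, and controls had the same split, with 31.2, 33.6, 178, 205 and 25.9 FPKM at 12 days.

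**Figure D3:**
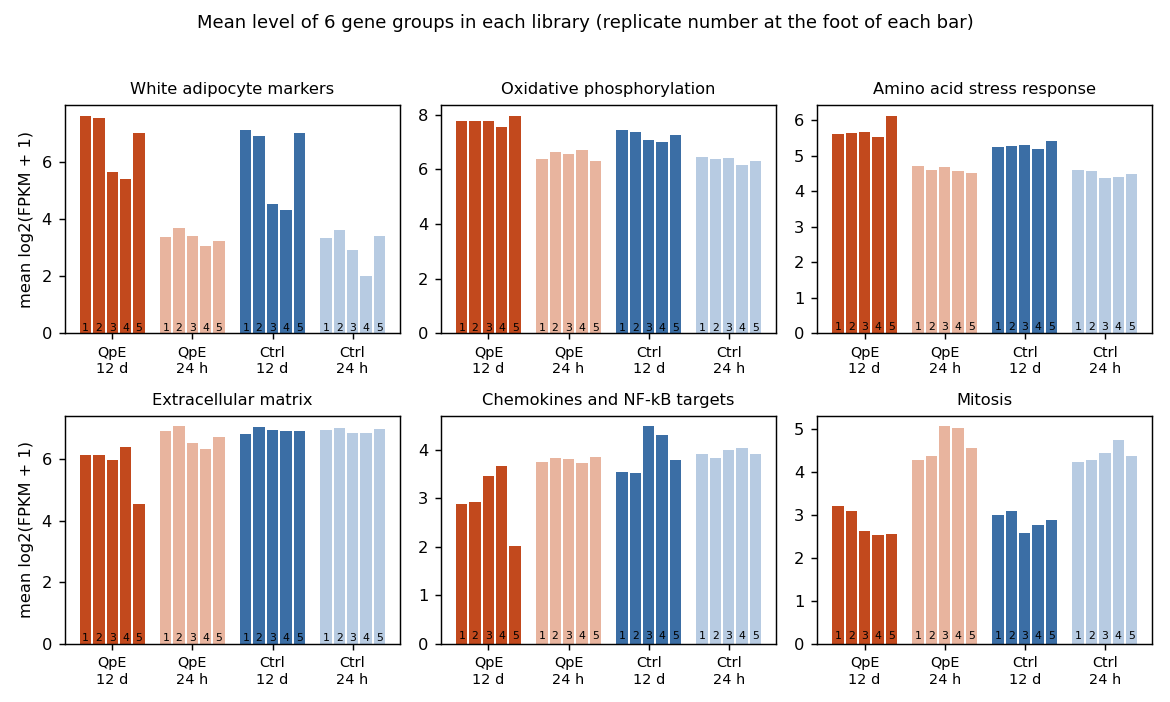
Mean log2(FPKM + 1) over the tested members of 6 gene groups in each library, grouped as QpE at 12 days, QpE at 24 h, control at 12 days and control at 24 h, with the replicate number at the foot of each bar. White adipocyte markers are lower in replicates 3 and 4 at 12 days in both treatments (5.64 and 5.39 with QpE, 4.50 and 4.32 in controls), and the matrix group is lowest in replicate 5 of QpE (4.54).

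Wnt pathway and chemokine genes were in part lower too. Of 13 tested genes of the Wnt pathway 7 were lower and none higher, with a median of -0.63, against 4 lower and 1 higher at -0.14 in controls. Sfrp2, a secreted Wnt modulator, had 22.7, 21.7, 10.4, 14.6 and 3.501 FPKM at 12 days and 58.8, 60.2, 50.2, 47.2 and 58.5 FPKM at 24 h with QpE, a fall of 2.05 ± 0.40 (adjusted p = 0.0038). Controls had 62.3, 66.8, 47.4, 48.1 and 75.6 FPKM at 12 days and 73.7, 68.2, 66.6, 72.5 and 66.3 FPKM at 24 h. Fzd1, a Wnt receptor, had 40.4, 43.6, 25.4, 29.6 and 15.99 FPKM at 12 days and 109.6, 112, 90.3, 85.6 and 123 FPKM at 24 h (fall 1.78 ± 0.25, adjusted p = 0.000612). Of 16 chemokines and NF-kB targets 6 were lower and none higher, against 3 lower and 2 higher in controls. Cxcl5, a neutrophil chemokine, had 13.95, 8.97, 10.6, 14.7 and 0.723 FPKM at 12 days and 38.3, 46.1, 34.4, 49.3 and 48.5 FPKM at 24 h (fall 2.35 ± 0.54, adjusted p = 0.00879). Vcam1, an adhesion protein for leukocytes, fell by 1.94 ± 0.36.

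Stress response genes were raised by 12 days. Of 21 genes of the amino acid stress response, which the factor ATF4 drives, 13 were higher and none lower in QpE cultures, with a median of 0.79, and 13 were higher in controls, with a median of 0.61. Trib3, a pseudokinase that dampens ATF4, had 96.7, 97.6, 114, 90.5 and 255 FPKM at 12 days and 15.97, 9.899, 15.4, 12.8 and 9.92 FPKM at 24 h with QpE (rise 3.16 ± 0.28, adjusted p = 7.34e-05). It had 53.97, 57.3, 54.01, 48.1 and 62.1 FPKM in controls at 12 days. Atf3, a transcription factor of the same response, had 9.96, 12.8, 16.7, 15.3 and 17.4 FPKM over its whole locus at 12 days and 2.29, 1.81, 1.35, 0.661 and 1.22 FPKM at 24 h (rise 2.66 ± 0.20, adjusted p = 1.52e-05). The 12 day groups did not overlap between treatments in either gene, and replicate 5 was the highest in both. Nupr1, a small stress protein, rose by 2.24 ± 0.24 (adjusted p = 0.000151), and by 0.55 with no call when only the most abundant transcript was used.

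Endoplasmic reticulum genes did not move as a block, with 6 of 19 higher, 2 lower and a median of 0.04. Ero1l, the oxidase that forms disulfide bonds there and a hypoxia target, was the largest, with 250.3, 272, 179, 168 and 532 FPKM at 12 days and 24.5, 23.2, 22.3, 19.02 and 16.9 FPKM at 24 h (rise 3.54 ± 0.28, adjusted p = 4.37e-05). Controls had 65.4, 73.3, 75.7, 53.4 and 51.2 FPKM at 12 days and 19.9, 18.6, 13.8, 11.6 and 14.7 FPKM at 24 h. Every QpE culture at 12 days was far above every control culture. The difference between the courses was 1.58 ± 0.34 (adjusted p = 0.0639, and 0.0381 with unnamed transcripts added). Of 19 NRF2 targets 7 were higher and 1 lower. Hmox1, the heme oxygenase, had 234, 288, 781, 620.1 and 259 FPKM at 12 days and 88.4, 80.5, 82.4, 84.4 and 77.6 FPKM at 24 h (rise 2.21 ± 0.32, adjusted p = 0.000868), and replicates 3 and 4 were the highest, as they were in controls (142, 184, 626, 512 and 152 FPKM at 12 days). Nqo1, another target of NRF2, was not called.

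The metallothioneins Mt1 and Mt2, small zinc-binding proteins, rose with QpE and not in the controls' own test. Mt1 had 206, 363, 301, 306 and 884 FPKM with QpE at 12 days and 88.1, 70.7, 86.01, 101 and 106 FPKM at 24 h, a rise of 1.998 ± 0.33 (adjusted p = 0.00163). Controls had 52.1, 46.98, 193, 168 and 56.1 FPKM at 12 days and 74.6, 64.6, 80.5, 100.2 and 87.9 FPKM at 24 h, with a difference of 0.08 ± 0.41 (adjusted p = 0.921). Within the controls replicates 3 and 4 were above the 24 h cultures and the other 3 below them. Mt2 had 107, 196, 157, 126 and 564 FPKM over its whole locus with QpE at 12 days and 16.2, 15.9, 18.1, 19.01 and 17.96 FPKM at 24 h (rise 3.36 ± 0.37, adjusted p = 8.3e-05). It had 8.67, 8.28, 61.9, 56.96 and 10.95 FPKM in controls at 12 days. For both genes every QpE culture at 12 days was above every control culture, a separation whose share over all rows was not counted. The difference between the courses was 1.92 ± 0.55 for Mt1 (adjusted p = 0.125) and 3.03 ± 0.74 for Mt2 (adjusted p = 0.0534), and neither passed. Without replicates 3 and 4 of both 12 day groups both passed. Replicate 5 was the highest QpE culture in both genes.

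The promoter windows of this pair are printed because metallothionein genes are known to answer to zinc through a short element with the core TGCNCNC, bound by the factor MTF1. Matches to it on either strand are in capitals. The core occurs in 57.4% of the 8822 promoters of tested genes, so a single match says little, and Mt2 holds 5 matches where Mt1 holds 1. These counts cover only the 250 bases before the annotated start. Bases past that start were not searched, so the counts do not compare the whole promoters.
Mt1 (chr8:94178839-94179088, + strand): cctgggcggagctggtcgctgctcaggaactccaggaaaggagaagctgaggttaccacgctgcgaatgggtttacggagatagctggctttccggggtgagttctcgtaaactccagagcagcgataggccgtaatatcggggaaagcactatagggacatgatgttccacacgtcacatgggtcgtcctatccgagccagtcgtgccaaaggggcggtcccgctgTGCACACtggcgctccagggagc
Mt2 (chr8:94172368-94172617, + strand): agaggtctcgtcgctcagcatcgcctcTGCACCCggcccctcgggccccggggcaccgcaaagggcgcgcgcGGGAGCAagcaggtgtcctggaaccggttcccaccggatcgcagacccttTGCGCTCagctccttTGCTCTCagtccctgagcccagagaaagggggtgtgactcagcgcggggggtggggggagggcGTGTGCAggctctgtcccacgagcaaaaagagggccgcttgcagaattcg
Mtf1, which encodes the factor, was tested and not called. Of the zinc transporters, Slc30a1, an exporter, was called higher and Slc39a1, an importer, lower, with differences of 0.58 and -0.34.

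**Figure D4:**
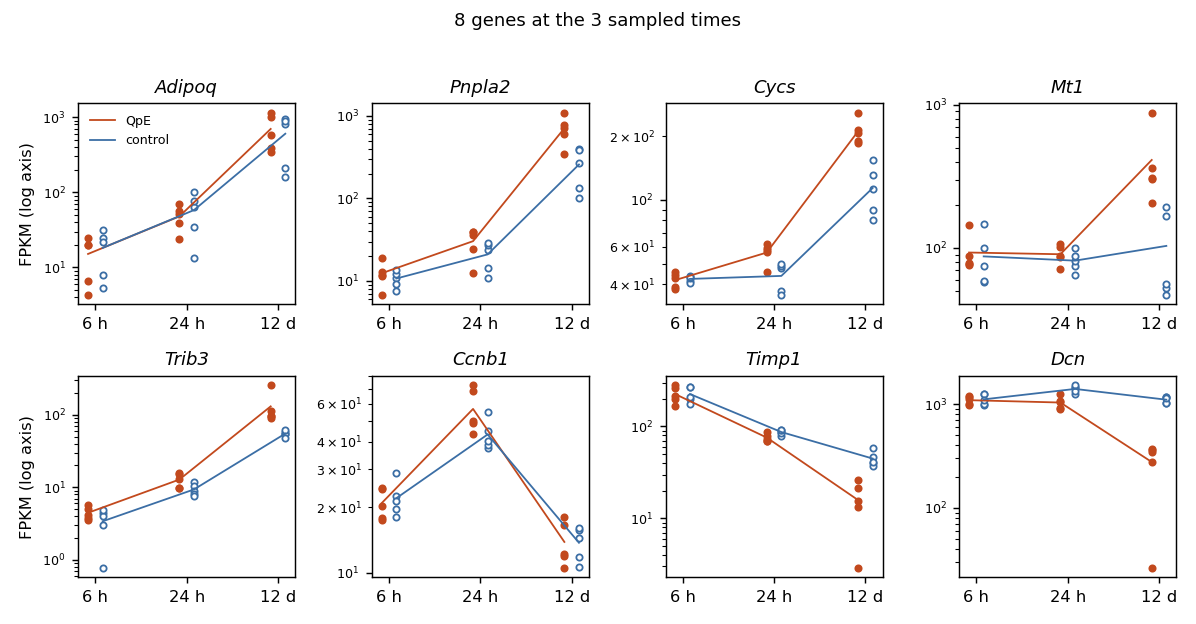
FPKM (log axes) of 8 genes in each library at 6 h, 24 h and 12 days, with QpE (filled) and in controls (open), and lines through the group means. With QpE, Ccnb1 averaged 20.9, 56.7 and 13.9 FPKM over the 3 times, and Mt1 92.9, 90.4 and 412 FPKM.

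Other single genes stood out by size. Itih4, of the inter-alpha-trypsin inhibitor heavy chain family, had 19.6, 15.4, 18.9, 11.9 and 115 FPKM at 12 days with QpE, against at most 0.0933 FPKM at 24 h. It rose by 4.57 ± 0.51 (adjusted p = 0.000208), had 3.89, 3.54, 4.28, 2.93 and 3.05 FPKM in controls at 12 days, and replicate 5 was far above the rest. Agt, the precursor of angiotensin, had 90.2, 108, 139, 103 and 268 FPKM over its whole locus at 12 days and 22.997, 26.2, 31.3, 20.2 and 15.4 FPKM at 24 h (rise 2.47 ± 0.29, adjusted p = 0.000107). Its named transcripts alone gave 4.32 ± 1.03, with 2 of the 24 h libraries listed at 0. Ces1d, a carboxylesterase that also acts on triglyceride, had 71.03, 60.04, 43.5, 44.04 and 61.2 FPKM at 12 days and 2.399, 2.74, 1.98, 1.49 and 1.42 FPKM at 24 h (rise 4.24 ± 0.18, adjusted p = 1.78e-06). Cyp1b1, a cytochrome P450 under the aryl hydrocarbon receptor, went down, with 41.1, 42.7, 59.96, 70.98 and 20.96 FPKM over its whole locus at 12 days and 149, 148, 198, 222 and 198 FPKM at 24 h (fall 2.02 ± 0.28, adjusted p = 0.000322). Of 6 tested thermogenic genes 5 were higher, Kcnk3 and Cox7a1 included, while Ucp1, the uncoupling protein of brown fat, was listed at 0 in all 10 libraries. Genes of the cytosolic ribosome gave the flat end of the scale, with 0 of 21 called in either direction by limma, 0 also under the other scalings, and a median of -0.08.

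The control cultures passed through much of the same change without QpE. Over 24 h to 12 days 1462 rows were higher (8.11%) and 2227 lower (12.3%) in controls, 20.5% of rows in all. Among named genes 10.0% were higher and 15.1% lower, 25.1% in all. With QpE and in controls 1149 rows were higher in both, which is 54.1% of the QpE calls and 78.6% of the control calls. A further 1634 were lower in both, which is 51.7% and 73.4%. No row was called in opposite directions. Among the rows called higher in both, the median difference was 1.05 with QpE and 0.73 in controls, and 89.5% had the larger difference with QpE. Among those lower in both the medians were -0.96 and -0.61, and 90.1% had the larger difference with QpE. A row enters these counts only if it passed in both courses, and the shares carry no test.

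**Figure D5:**
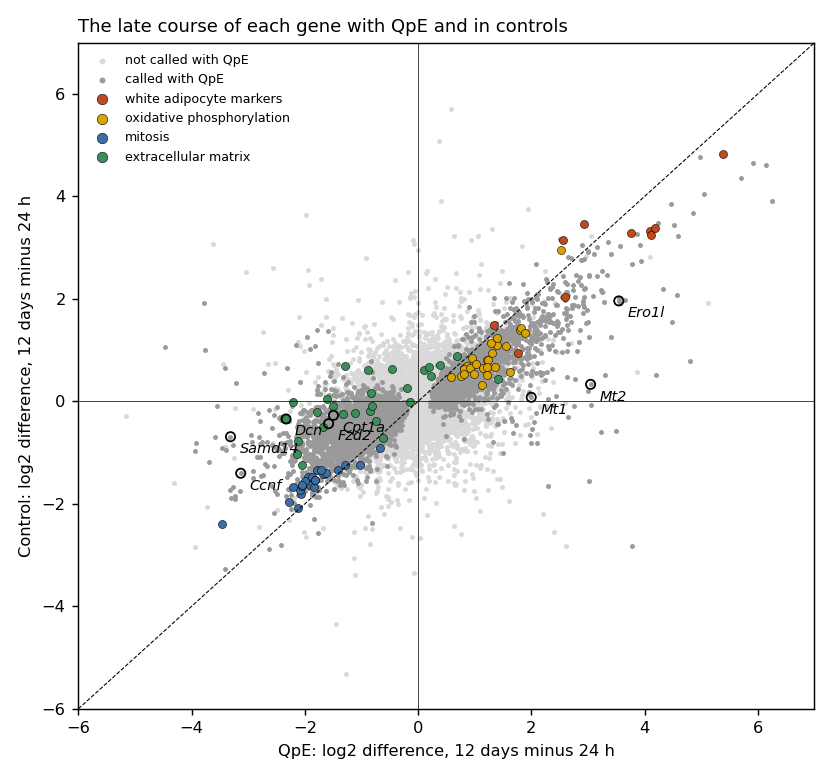
Log2 difference of each gene row between 12 days and 24 h with QpE (horizontal) and in controls (vertical), with rows called with QpE in darker grey, 4 gene groups in colour and 8 single genes ringed. Medians with QpE and in controls are 3.35 and 3.27 for white adipocyte genes and -1.87 and -1.53 for mitosis genes. They are 1.21 and 0.71 for oxidative phosphorylation genes and -0.85 and -0.02 for extracellular matrix genes. The dashed line marks equal change. The difference was more positive with QpE in 27 of 28 oxidative phosphorylation, 7 of 10 white adipocyte, 2 of 27 mitosis and 2 of 27 matrix genes. Mt1 and Mt2 differ mainly along the horizontal axis.

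The direct test of the difference between the courses called few genes. Of 18035 rows 5 passed (0.0277%), 2 more positive with QpE (0.0111%) and 3 more negative (0.0166%), and 2374 had an unadjusted p under 0.05. No white adipocyte, mitochondrial, mitosis or matrix gene of the lists was among them. The named genes were Fzd2, Ccnf and Samd14, all more negative with QpE, which is 0.0235% of named genes, and the other 2 rows were unnamed loci. Fzd2, a Wnt receptor, had 10.9997, 10.5, 8.45, 7.75 and 6.29 FPKM with QpE at 12 days and 32.4, 28.6, 25.6, 22.7 and 31.1 FPKM at 24 h. Controls had 21.3, 21.1, 22.4, 21.7 and 25.2 FPKM at 12 days and 34.7, 29.1, 28.7, 30.6 and 29.9 FPKM at 24 h. Fzd2 fell in both courses, by 1.58 ± 0.16 with QpE and 0.44 ± 0.07 in controls, and the difference was -1.15 ± 0.17 (adjusted p = 0.0122). All 5 QpE cultures at 12 days were below all 5 controls of that age, while the 24 h groups overlapped.

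Ccnf, the cyclin F that marks proteins for degradation, had 0.615, 0.992, 0.302, 1.51 and 0.233 FPKM with QpE at 12 days and 12.4, 13.1, 14.3, 11.9 and 17.01 FPKM at 24 h, against 4.55, 4.67, 2.81, 4.67 and 5.22 FPKM at 12 days and 10.9, 12.3, 12.9, 15.4 and 14.1 FPKM at 24 h in controls. The difference was -1.73 ± 0.26 (adjusted p = 0.0114). Its locus holds 3 named genes, so reads may be shared with its neighbours, and the same holds for Fabp4, Phospho1, S100a4, Stmn1, Nr1h3 and Pcolce, whose loci hold 2 to 4. Samd14, which holds a protein-binding SAM domain, had 0, 0, 0, 0.76 and 0 FPKM with QpE at 12 days from its named transcripts, a value of 0 in 4 of 5 libraries that may be a failed estimate. Over its whole locus it had 2.25, 4.07, 2.37, 2.72 and 1.29 FPKM at 12 days and 10.99, 9.83, 9.95, 10.3 and 10.8 FPKM at 24 h with QpE. Controls had 7.25, 6.48, 6.399, 6.95 and 7.81 FPKM at 12 days and 11.5, 10.96, 11.3, 12.3 and 11.9 FPKM at 24 h. The difference by that measure was -1.07 ± 0.19 (adjusted p = 0.0278).

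This test was sensitive to single cultures. Leaving out replicate 5 of QpE at 12 days gave 45 rows more positive and 138 more negative with QpE, and leaving out replicate 2 gave 46 and 107. Leaving out replicate 4 of QpE gave 29 and 38 at 12 days and 14 and 18 at 24 h. With unnamed transcripts added the counts were 44 and 103. Members of the lists that passed then included Dlk1, Sox9, Sfrp2, Fzd1, Lox and Cpt1a on the negative side and Ero1l and Ndufv2 on the positive side. Leaving out replicates 3 and 4 of both 12 day groups gave 110 and 103, with 6 of 19 genes of branched-chain amino acid breakdown and 6 of 17 hypoxia targets among the positive ones.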

How the data were processed

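RNA was sequenced from 30 cultures of 3T3-L1 cells, and 20 of these (QpE and control, at 12 days and 24 h) enter the tests. The deposited values are FPKM per transcript, made by the authors with HISAT, HISAT2 and StringTie on GRCm38, per the submitters' processing notes, which give no versions or settings. In 10 libraries the deposited FPKM include values below 0, 11 in all and none under -7e-05, so these columns were recorded under the unit score, and the values were set to 0. FPKM were summed per gene name, and unnamed transcripts were kept as rows of their own.

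Rows with at least 1 FPKM in at least 5 of all 30 libraries were kept, so every comparison tested the same rows. They were tested on log2(FPKM + 1) with limma 3.58.1 (moderated, with a mean trend) in R 4.3.3, using the groups compared only. The difference between courses was the interaction of treatment and time. The steps were tested on simulated data. Depth was estimated from steps in low FPKM values, of which 33.1% to 40.1% were whole multiples, so it is approximate and no count test was run. The genes named were the 15 largest rises and falls that were called, did not overlap and averaged at least 20 FPKM in the higher group, up to 4 members per list, and a fixed set of known fat cell genes. Genes outside that rule were chosen after their values were seen. The members and lists were chosen with earlier results of these data known. Alternatives were other scalings, pseudocounts, filters, transcript sums, weights, spreads and libraries left out.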

Additional observations from a re-analysis of the deposited data

Results flagged for a closer look

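In 27 of 234 groups of 5 libraries examined, 1 library of a named gene lay far from the other 4, by named transcripts alone. Chance alone sets such a library apart in about 1 group in 20. Of these, 14 were replicate 5 of QpE at 12 days. It lay low for Col1a1 (87.1 FPKM against 301 to 462), Col23a1 (1.55 FPKM against 12.99 to 15.5), Cpt1a (5.48 FPKM against 11.9 to 15.4), Cxcl5 (0.723 FPKM against 8.97 to 14.7), Cyp1b1 (8.13 FPKM against 35.96 to 55.03) and Dcn (26.4 FPKM against 275 to 373). It was also low for Mgp (2.63 FPKM against 15.4 to 20.3), Mmp3 (0.846 FPKM against 59.8 to 104), Pcolce (90.5 FPKM against 239 to 354), Ptn (169 FPKM against 1364 to 1909.9), S100a4 (87.2 FPKM against 314 to 398) and Stmn1 (8.13 FPKM against 15.96 to 18.5). It lay high for Itih4 (115 FPKM against 11.9 to 19.6) and Trib3 (255 FPKM against 90.5 to 114).

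With QpE at 12 days, 1 library stood low for Agpat2 (replicate 1, 189 FPKM against 439 to 599) and Cd14 (replicate 4, 0 FPKM against 1.58 to 1.896). With QpE at 12 days, 1 library stood high for Ccnb2 (replicate 2, 10.2 FPKM against 6.07 to 6.69) and Mki67 (replicate 1, 6.28 FPKM against 0 to 0.701). With QpE at 24 h, 1 library stood low for Bcat1 (replicate 2, 3.06 FPKM against 7.81 to 9.33), Cycs (replicate 5, 45.8 FPKM against 56.8 to 61.7), Gpd1 (replicate 4, 0.301 FPKM against 9.79 to 19.03) and Lpl (replicate 2, 13.5 FPKM against 268 to 346). The flagged libraries of Agpat2, Ccnb2, Mki67 and Lpl did not stand apart in this way in the whole-locus values above. With QpE at 24 h, 1 library stood high for Ccnd1 (replicate 5, 70.8 FPKM against 57.8 to 60.5) and Cox7a1 (replicate 2, 0.948 FPKM against 0.162 to 0.25). Single libraries were above 0 where the other 4 are listed at 0 for Adgre1 (0.0242 FPKM, QpE at 24 h, replicate 4), Cdkn1c (0.187 FPKM, QpE at 12 days, replicate 2) and Samd14 (0.76 FPKM, QpE at 12 days, replicate 4).

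The QpE and control courses differed by limma's test of the difference for Fzd2 (-1.15 on the log2 scale), Ccnf (-1.73) and Samd14 (-2.62), each more negative with QpE. The values of Samd14 rest on named transcripts listed at 0 in 4 of 5 libraries, and the difference was -1.07 over its whole locus.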

How the results depend on the processing

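The QpE course kept both of its counts within 1.5 times under every alternative run, with 1612 to 2698 rows higher and 2281 to 4080 lower. Leaving out single libraries gave 1806 to 2149 higher and 2652 to 3188 lower. With the replicate number as a block the counts were 1886 and 2703. Same-numbered cultures correlated at 0.0027 to 0.0904 between the QpE times, at 0.0837 to 0.209 between the treatments at 12 days (4 of 5 over 0.1) and at -0.0063 to 0.108 between the treatments at 24 h. Not every pair reached 0.1 and not every culture correlated best with its own number, so the block was kept as an alternative. That block joined same-numbered cultures of 1 treatment at both times. A block across the treatments at 12 days was not fitted, so the correlation seen there was not taken into account. Without replicates 3 and 4 of QpE at 12 days, an alternative chosen after seeing the data, they were 2250 and 3396. Among the values of single genes in this course, 3808 kept their direction and call, 58 gained a call, 80 lost one and 1 reversed: Gapdh, a glycolytic enzyme, was at 2.00, and at -0.31 with the most abundant transcript only. The control course had 2227 rows lower, and 1435 with the most abundant transcript only.

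The test of the difference between courses moved most, with 2 rows more positive and 3 more negative as reported. The counts were 134 and 230.0 when all 30 libraries shared 1 spread. That fit was set aside earlier because it made many false calls in simulated data. No rate of false calls is given here for that fit or for the reported test. The 4 groups of the reported test also share 1 spread, though their variability differs. Their median SDs were 0.35 and 0.26 with QpE at 12 days and 24 h, and 0.29 and 0.22 in controls. Other counts were 24 and 42 with at least 5 FPKM in at least 5 libraries, 44 and 103 with unnamed transcripts added, 44 and 89 with weights per group, and 1 and 1 with the replicate block. TPM scaling gave 1 more positive, a pseudocount of 0.1 gave 1, and no filter gave 4. Leaving out single libraries gave 2 to 46 more positive and 3 to 138 more negative. Without replicates 3 and 4 of both 12 day groups, chosen after seeing the data, the counts were 110.0 and 103. The cause was not tested. Depth limits the weakly expressed genes, whose differences are understated by the pseudocount.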

Other observations

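Other gene groups, of mature fat cells and of defence, had these counts in the QpE course. Of 10 tested adipokine genes 6 were higher at 12 days and none lower, with a median of 1.69 on the log2 scale, against 6 higher at 1.18 in controls. Of 24 peroxisome genes 11 were higher and 1 lower, with a median of 0.77. Of 19 genes of cholesterol synthesis 4 were higher and 2 lower, and 11 and 1 without replicates 3 and 4 of QpE at 12 days. Lysosome genes had 4 of 20 higher and none lower, and 4 higher and 11 lower without that pair. Of 19 interferon and antigen presentation genes 4 were lower and none higher, with a median of -0.48. Among all named genes 14.3% were higher and 20.3% lower, so this count of lower genes is near the background. The counts of higher cholesterol and lysosome genes over all 10 libraries are not far above theirs.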
